A study of Mus musculus with 15 samples.

Results

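The T cell receptor (TCR) alpha chains described here carry a CDR3, the hypervariable loop of the chain, that ends in the residues NYNVLY, the end that the joining segment TRAJ21 gives to the loop in the mouse. All CDR3 peptides listed with that end in any of 15 libraries were taken, which gave 2324 of 92219 distinct CDR3s. The loop is written as the files list it, without the conserved residues that border it. The files give no gene names, so the segment is named from the end alone. In the RefSeq gene table of GRCm38.p6, Traj21 (gene ID 100124368) is 1 of 60 Traj genes of the alpha locus, with 40 of them on the side of lower coordinates and 19 on the other.

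A TCR alpha chain is made in the thymus by joining a V segment to a J segment. The V segment gives the first residues of the CDR3, the J segment gives the last ones, and the residues between them depend on how both ends were trimmed and which nucleotides were added. The CDR3 is the loop that contacts mainly the peptide presented by an MHC molecule. With the beta chain fixed by a transgene, the alpha chain carries the differences between receptors, unless endogenous beta chains are also used, which was not measured.

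All mice were C57BL/6 males that carry the TCRbtg transgene, which supplies the same beta chain to all groups. The 5 Tumour libraries came from CD8b+ CD4neg cells of prostate tumours of TRAMP+/- TCRbtg males aged 27 weeks. TRAMP is a transgenic model in which an oncogene under a prostate epithelium promoter drives prostate cancer. The 5 MP (memory-phenotype) libraries came from CD8b+ CD4neg CD44hi CD122+ cells and the 5 Naive libraries from CD8b+ CD4neg CD44lo CD122neg cells, all from spleen combined with lymph nodes, of TCRbtg males aged 9 weeks. CD44 and CD122 are surface proteins that are high on memory T cells, and no gate on them is given for the tumours. The promoter of the beta chain transgene is not given in the labels. Tissue, age, TRAMP genotype and sort gate differ together between Tumour and the other libraries, so their parts in any difference cannot be told apart. The lists hold TCR alpha CDR3s only, so the sorted cell types could not be checked against marker genes. The labels speak of 5 different mice, but not of whether a Naive and an MP library of the same number share a mouse.

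Each library held 547665 to 943699 reads, listed a CDR3 from 2 reads upward, and replicate libraries differed from each other by more than counting noise. Reads come from a multiplex PCR on RNA and no molecular identifier is stated, so intervals and floors below cover counting error only. A share of reads does not tell the number of cells from the RNA per cell. A CDR3 at 0 in a library had fewer than 2 reads there. Where a whole group was at 0, a fold was computed against a floor of 3 reads in each library of that group and is a lower bound.

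The most abundant loops of each group are shown first, since the comparisons below turn on them. They share the last 6 residues by the rule and differ in the residues before. Each line gives the group, the place in that group by mean share of reads, and the loop.
Tumour, place 1: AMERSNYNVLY
Tumour, place 2: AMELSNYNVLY
Tumour, place 3: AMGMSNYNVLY
Tumour, place 4: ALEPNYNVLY
MP, place 1: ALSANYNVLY
MP, place 2: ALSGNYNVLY
MP, place 3: ALPNYNVLY
MP, place 4: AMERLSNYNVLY
Naive, place 1: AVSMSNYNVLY
Naive, place 2: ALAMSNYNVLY
Naive, place 3: ALMSNYNVLY
Naive, place 4: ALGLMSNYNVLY
The first 3 Tumour loops begin with AM and have a serine before the end. The first 3 MP loops begin with AL and have alanine, glycine or proline there. The 4 Naive loops all have methionine and serine before the end.

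The loops took a larger share of the distinct CDR3s in tumours than in MP or Naive libraries, while their share of reads did not differ past the threshold in any comparison. They made up 4.04, 10.1, 9.47, 5.42 and 20.2% of reads in Tumour libraries 1 to 5, against 4.51, 4.18, 3.48, 2.87 and 4.68% in MP libraries 1 to 5 and 5.02, 4.26, 4.80, 4.33 and 4.22% in Naive libraries 1 to 5. Tumour 5 was the highest of all libraries and Tumour 1 lay among the MP and Naive libraries. The 95% Wilson intervals of these shares reached at most 0.0810 percentage points to either side, less than the spread between libraries. The mean was 9.84 ± 6.34% in Tumour, 3.94 ± 0.758% in MP and 4.53 ± 0.358% in Naive libraries (SD, n = 5 each).

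Shares were compared by an exact two-sided permutation test over libraries for all 45 ends of 6 residues with a mean share of at least 0.1%, adjusted by Benjamini-Hochberg over these ends, with 0.05 as the threshold. The share of reads differed by 5.89 percentage points between Tumour and MP (exact permutation test, adjusted p = 0.0893) and by 5.31 points between Tumour and Naive (adjusted p = 0.104, exact permutation test). Of the 45 ends, 6.67% were called higher and 20.0% lower in Tumour against MP, and 2.22% higher and 24.4% lower in Tumour against Naive. Without Tumour 1 these differences were 7.34 and 6.76 points and passed the threshold (adjusted p = 0.0420 each, exact permutation test). For MP against Naive the difference was -0.58 points (exact permutation test, adjusted p = 0.192), where 26.7% of ends were called higher and 48.9% lower.

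Counted as distinct CDR3s, the loops numbered 111, 189, 55, 109 and 100 in Tumour libraries 1 to 5, against 327, 104, 63, 75 and 390 in MP and 744, 371, 679, 609 and 656 in Naive libraries. These were 7.59 ± 1.61% of all distinct CDR3s in Tumour, 2.78 ± 0.198% in MP and 2.50 ± 0.0361% in Naive libraries (SD, n = 5 each). All 5 Tumour libraries (5.89 to 10.2%) lay above every MP and Naive library, as the plot of shares by library shows. The difference of Tumour from Naive was 5.09 points (exact permutation test, adjusted p = 0.0298) and that from MP was 4.81 points (exact permutation test, adjusted p = 0.0446), each the largest in size of the 45 ends. By this measure 11.1% of the ends were called higher and 22.2% lower in Tumour against Naive, and 8.89% higher and 8.89% lower in Tumour against MP. The MP share was 0.28 points above the Naive share (exact permutation test, adjusted p = 0.0210), where 15.6% of ends were called higher and 24.4% lower. Leaving out any 1 of the 10 libraries raises the smallest possible p to 0.0159. The adjusted p was then 0.0595 to 0.0913 for Tumour against MP, and 0.0406 to 0.0608 for Tumour against Naive, where the call was lost without Tumour 5 or without any 1 Naive library (exact permutation tests).

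Some loops differed by 1 substitution from a CDR3 with at least 100 times their reads in the same library. They made up 43.4 to 74.5% of the loops in Tumour libraries, 6.67 to 47.6% in MP libraries and 8.08 to 12.1% in Naive libraries. Their origin was not tested. With such loops folded into the abundant one, the differences in the share of distinct CDR3s were 4.41 points for Tumour against Naive and 4.21 points for Tumour against MP, and both still passed the threshold (exact permutation test, adjusted p = 0.0179 and 0.0446). With CDR3s of at least 10 reads the difference of Tumour from MP was 4.61 points and no longer passed (exact permutation test, adjusted p = 0.0595). For MP against Naive the folded difference was 0.19 points and no longer passed (exact permutation test, adjusted p = 0.426), and with at least 10 reads it was -0.0998 points (exact permutation test, adjusted p = 0.824).

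**Figure D1:**
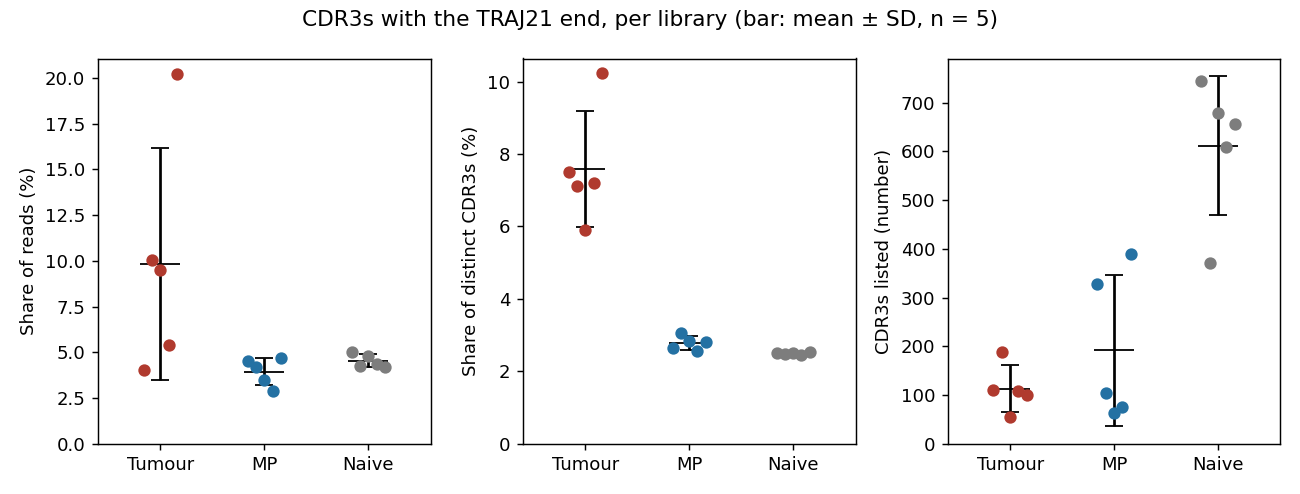
Share of reads (%), share of distinct CDR3s (%) and number of distinct CDR3s with the TRAJ21 end in each library; points are libraries and bars are the mean ± SD of 5. The 5 Tumour libraries lie between 5.89 and 10.2% of distinct CDR3s, above all MP and Naive libraries, while Tumour 5 alone reaches 20.2% of reads.

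By share of reads, the residue just before the end set MP libraries apart from both other groups. Serine stood there in 71.1 to 90.4% of the loops' reads in Tumour libraries, against 26.6 to 38.9% in MP libraries and 95.3 to 95.7% in Naive libraries. Alanine stood there in 1.11 to 8.59% in Tumour libraries, 34.1 to 42.2% in MP libraries and 1.20 to 1.62% in Naive libraries. Glycine took 0 to 4.96% in Tumour libraries, 14.9 to 19.4% in MP libraries and 0.180 to 0.389% in Naive libraries. The MP range therefore did not overlap with either of the others for any of these residues. By distinct loops the groups were closer. Serine then led on average, with 61.4% in Tumour, 66.1% in MP and 76.1% in Naive libraries. Alanine took 6.36% of distinct loops in Tumour, 8.01% in MP and 6.85% in Naive libraries, and glycine 1.60, 2.93 and 1.84% in the same order.

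As shares of all reads, and over all 72 ends of 7 residues tested in the same way, 26.4% of ends were called higher and 47.2% lower in MP against Naive. ANYNVLY averaged 1.52 ± 0.404% of reads in MP and 0.0645 ± 0.00975% in Naive libraries (SD, n = 5 each). GNYNVLY averaged 0.694 ± 0.195% in MP and 0.0109 ± 0.00354% in Naive libraries, and PNYNVLY 0.264 ± 0.0492% in MP and 0.0353 ± 0.00926% in Naive libraries. All 3 were higher in MP, while SNYNVLY was lower at 1.27 ± 0.155% in MP against 4.32 ± 0.345% in Naive libraries (exact permutation test, adjusted p = 0.0119 for each of the 4). For TNYNVLY the difference of 0.02 points did not pass (exact permutation test, adjusted p = 0.299). The small difference in the whole share of reads between MP and Naive was thus made of a lower serine form and higher alanine, glycine and proline forms. In MP these higher forms were mostly the loops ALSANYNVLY (mean 1.42% of reads), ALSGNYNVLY (0.691%) and ALPNYNVLY (0.234%), in that order.

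In tumours the serine form took 7.57 ± 4.35% of reads (SD, n = 5). This was 6.30 points above MP (exact permutation test, adjusted p = 0.0248, with 6.94% of ends called higher and 29.2% lower in Tumour against MP). It was 3.26 points above Naive, which did not pass (exact permutation test, adjusted p = 0.234). The alanine form, at 0.398 ± 0.305% in tumours, was 1.12 points lower than in MP (exact permutation test, adjusted p = 0.0248). It was 0.33 points higher than in Naive libraries (exact permutation test, adjusted p = 0.0260, with 4.17% of ends called higher and 30.6% lower in Tumour against Naive). That call was lost without Naive 1, 3, 4 or 5, with adjusted p of 0.0512 to 0.0537 (exact permutation test). The glycine form, at 0.170 ± 0.213%, was 0.52 points lower than in MP (exact permutation test, adjusted p = 0.0440), a call lost with 8 of the 10 libraries left out, for which the adjusted p reached 0.0847. Its difference from Naive of 0.16 points did not pass (exact permutation test, adjusted p = 0.190), but did without Tumour 1 (exact permutation test, adjusted p = 0.0417). The proline form averaged 1.12 ± 1.75% in tumours, with 4.22% in Tumour 5 and at most 0.538% in the others. It did not differ past the threshold from MP or from Naive (exact permutation test, adjusted p = 0.412 and 0.0737), but it did from both without Tumour 3 (exact permutation test, adjusted p = 0.0358 each). The threonine form reached 1.70% in Tumour 2, where it took 16.9% of the loops' reads.

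**Figure D2:**
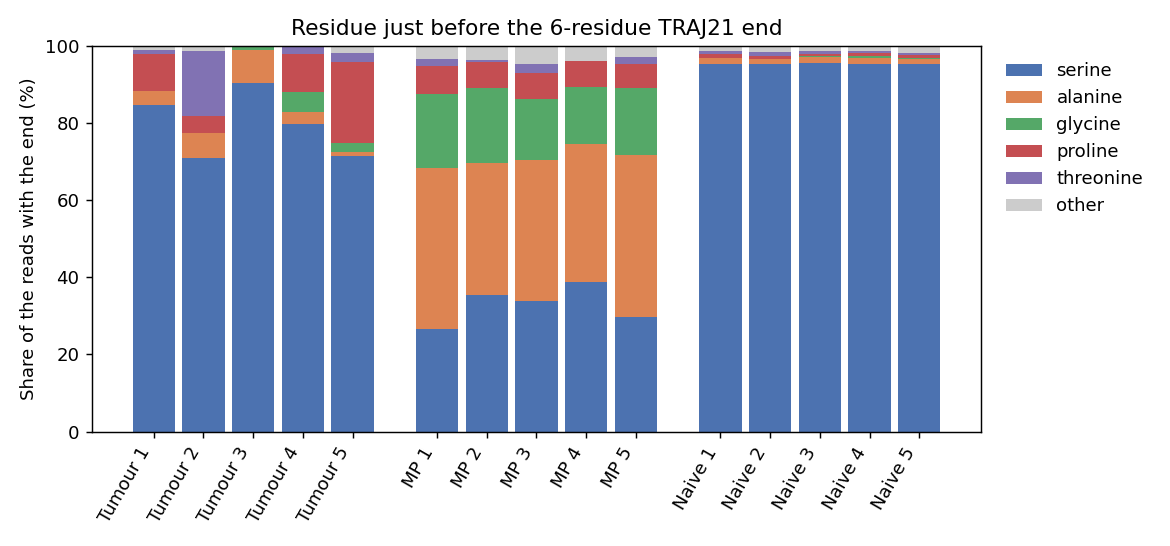
Residue just before the 6-residue end, as a share (%) of the loops' reads in each library. Serine takes 71.1 to 90.4% in Tumour libraries and at least 95.3% in each Naive library, whereas in MP libraries alanine takes 34.1 to 42.2% and glycine 14.9 to 19.4%.

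The first residues of the loop, given by the V segment, also differed between the groups. Loops that begin with AM held 66.7 ± 11.3% of the loops' reads in Tumour, 11.4 ± 1.65% in MP and 3.47 ± 0.840% in Naive libraries (SD, n = 5 each). In the reads of all other ends, AM began 1.84% in Tumour, 9.04% in MP and 5.91% in Naive libraries on average. The Tumour libraries ranged from 57.2 to 83.2%, and none of them overlapped with MP or Naive. Read from the other side, 67.4 to 90.8% of all Tumour reads that begin with AM had the TRAJ21 end, against 4.27 to 5.47% in MP libraries and 1.76 to 3.38% in Naive libraries. Among the 45 ends, this one had the highest share of AM in Tumour, the 8th highest in MP and the 36th in Naive libraries. These starts were looked up after the values of the loops had been seen and were not tested.

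Loops beginning with AL held 4.67 ± 7.44% of the loops' reads in Tumour, 67.6 ± 2.88% in MP and 30.9 ± 1.42% in Naive libraries (SD, n = 5 each). The other ends had AL in 11.2% of reads in Tumour, 38.6% in MP and 30.2% in Naive libraries, so the Naive loops were close to the other ends. Loops beginning with AV held 5.67 ± 8.13% in Tumour, 6.84 ± 2.24% in MP libraries (SD, n = 5 each) and 46.5 to 54.0% in Naive libraries, where the other ends had 11.2%. By reads, each group thus had its own leading start, AM in Tumour, AL in MP and AV in Naive libraries, as the plot of second residues shows. By distinct loops AL led in Naive libraries too (30.3%, against 13.9% for AV), as in MP (34.5%). The AV loops held 2.27% of all Naive reads, of which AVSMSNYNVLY alone held 2.07%. Among the 45 ends, this one ranked 4th for AL in MP and 3rd for AV in Naive libraries.

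**Figure D3:**
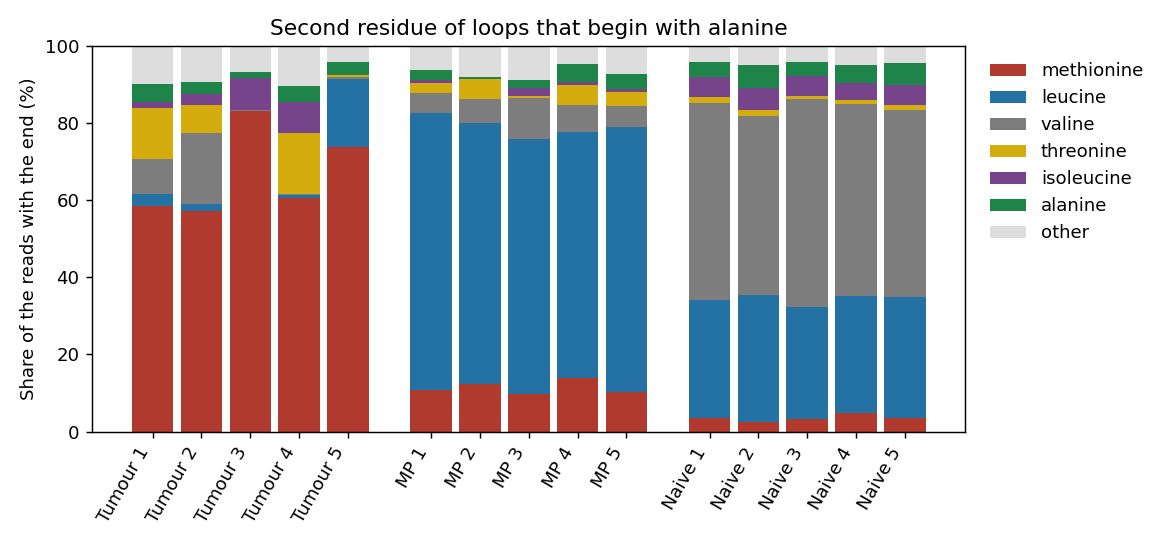
Second residue of the loops that begin with alanine, as a share (%) of the reads with the TRAJ21 end in each library. Methionine leads in all Tumour libraries (57.2 to 83.2%), leucine in all MP libraries (64.0 to 71.7%) and valine in all Naive libraries (46.5 to 54.0%).

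Loops of 10 residues held 36.0 ± 12.1% of the loops' reads in Tumour, 63.3 ± 5.27% in MP and 11.7 ± 0.315% in Naive libraries, and loops of 11 residues held 61.0 ± 14.2% in Tumour, 13.3 ± 3.37% in MP and 66.9 ± 1.03% in Naive libraries (SD, n = 5 each). Loops of 12 residues made up 1.96% of these reads in Tumour, 9.48% in MP and 17.5% in Naive libraries on average, and loops of 9 residues 0.275% in Tumour, 11.8% in MP and 1.30% in Naive libraries. The read-weighted mean length was 10.5 to 10.8 residues in Tumour, 10.2 to 10.3 in MP libraries and 11.0 to 11.1 in Naive libraries. CDR3s with other ends averaged 11.4 to 11.7 residues in Tumour, 10.8 to 11.0 in MP libraries and 11.2 to 11.3 in Naive libraries. By reads, the loops were shorter than the other CDR3s in each group by these ranges. Counted once each, the MP loops averaged 10.7 to 11.1 residues and the other MP CDR3s 10.8 to 11.2, which overlap. The means were then 10.8 against 11.5 in Tumour and 11.2 against 11.6 in Naive libraries. Among distinct Naive loops, 12 residues were most common (33.4%, against 27.6% for 11).

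**Figure D4:**
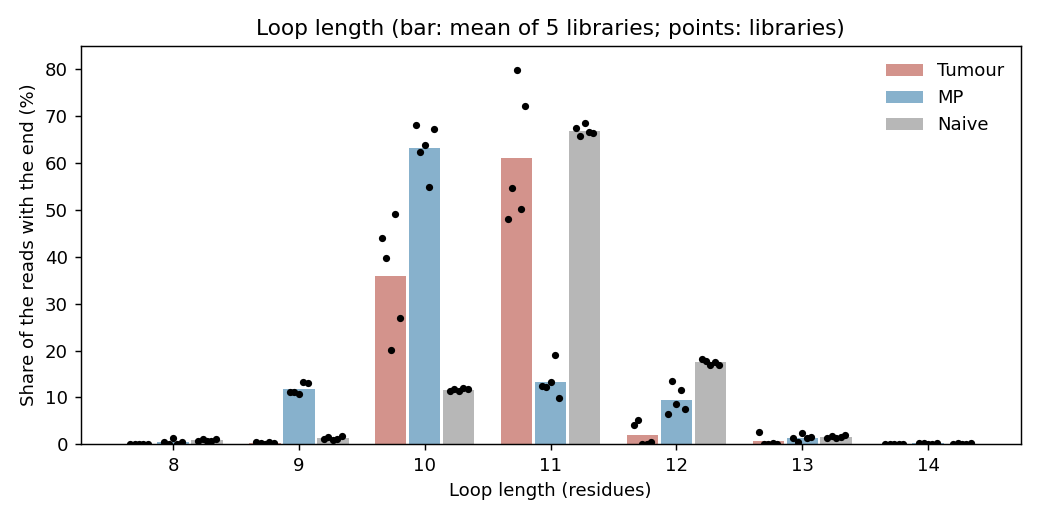
Share (%) of the reads with the TRAJ21 end by loop length in residues; bars are the mean of 5 libraries and points are libraries. Tumour reads are mostly of 11 and 10 residues (61.0 and 36.0%), MP reads mostly of 10 (63.3%) and Naive reads mostly of 11 (66.9%).

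The abundant loops of each group fall into sequence families that differ at 1 or a few positions, written here with x for any residue. The families were drawn up after the loops had been seen and are described without a test. In tumours the family AMExSNYNVLY took 4.23 ± 4.23% of all reads, against 0.166 ± 0.0251% in MP and 0.00380 ± 0.00138% in Naive libraries (SD, n = 5 each). It had 14 different residues at x in Tumour, 12 in MP and 12 in Naive libraries. Arginine at x held 2.54% of Tumour reads, leucine 0.895%, glutamine 0.312%, methionine 0.309% and valine 0.166%. Each other residue held at most 0.00557% there. The family AMGxSNYNVLY took 0.998 ± 0.388% of reads in tumours with 10 different residues at x, mostly as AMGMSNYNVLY (0.763%) and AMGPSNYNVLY (0.183%). In MP and in Naive libraries 1 member of it was listed, at mean shares of 0.00130% and 0.00102%. In tumours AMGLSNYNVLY followed at 0.0322%, and each other residue at x held at most 0.00978%. The numbers of residues at x in tumours include such rare loops, 1 substitution from an abundant one. Their origin was not tested, so these numbers do not measure diversity. The family ALSxNYNVLY made up 0.0143 ± 0.0283% of Tumour reads and 2.13 ± 0.576% of MP reads, against 0.0417 ± 0.0142% of Naive reads (SD, n = 5 each). It had 11 different residues at x in MP, 9 in Naive and 2 in Tumour libraries. Alanine at x held 1.42% of MP reads and glycine 0.691%, and each other residue at most 0.00895%. The family AxxMSNYNVLY made up 1.20 ± 0.365% of Tumour reads and 0.217 ± 0.0653% of MP reads, against 2.76 ± 0.277% of Naive reads (SD, n = 5 each). Of its members, 21 were listed in Tumour, 51 in MP and 104 in Naive libraries. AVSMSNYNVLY held 2.07% and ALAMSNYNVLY 0.550% of Naive reads.

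Libraries of the same group shared their abundant loops, most closely in Naive and least in Tumour libraries. The Morisita-Horn index runs between 0, where no read share is in common, and 1, where all shares are equal. It averaged 0.470 over pairs of Tumour libraries (0.194 to 0.828), 0.962 over pairs of MP libraries and 0.996 over pairs of Naive libraries. For CDR3s with other ends it averaged 0.215 in Tumour, 0.917 in MP and 0.971 in Naive libraries. Between groups the index for the loops averaged 0.0207 for Tumour and MP, 0.00199 for Tumour and Naive, and 0.0121 for MP and Naive. In number, 8 loops were listed in all 5 Tumour libraries and held 46.9 ± 11.8% of the loops' Tumour reads. In the same way 14 loops held 67.8 ± 3.94% in MP, and 132 loops held 88.0 ± 1.31% in Naive libraries (SD, n = 5 each). These numbers were not set against those over all CDR3s.

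Tumour libraries listed 368 of the 2324 loops, MP libraries 687 and Naive libraries 1749, and 74 were listed in all 3 groups. Of the Tumour loops 104 were also listed in MP, which is 28.3% of the Tumour list and 15.1% of the MP list. With Naive libraries the tumours shared 143 loops, 38.9% of the Tumour list and 8.18% of the Naive list. MP and Naive libraries shared 307, which is 44.7% of the MP list and 17.6% of the Naive list. The 195 loops listed in Tumour libraries only held 8.68% of the loops' Tumour reads. The other Tumour loops were listed in at least 1 MP or Naive library. Over all CDR3s, the Tumour list shared 25.7% with MP and 35.0% with Naive libraries. MP libraries shared 42.5% of their list with Naive libraries. From the other side, 6.21% of all MP CDR3s and 2.91% of all Naive CDR3s were also listed in tumours. In MP libraries 14.6% of all Naive CDR3s were listed. The loops listed in all 3 groups were not set against a count over all CDR3s. CDR3s listed in tumours only were 59.1% of all Tumour CDR3s, against 53.0% of the Tumour loops, and held 33.2% of all Tumour reads. These differences were not tested. The 10 loops most abundant in each group held 59.5% of the loops' reads in Tumour, 73.0% in MP and 69.7% in Naive libraries, each in its own group. The 10 leading Naive loops held 0.745% of the loops' reads in Tumour and 1.81% in MP libraries.

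**Figure D5:**
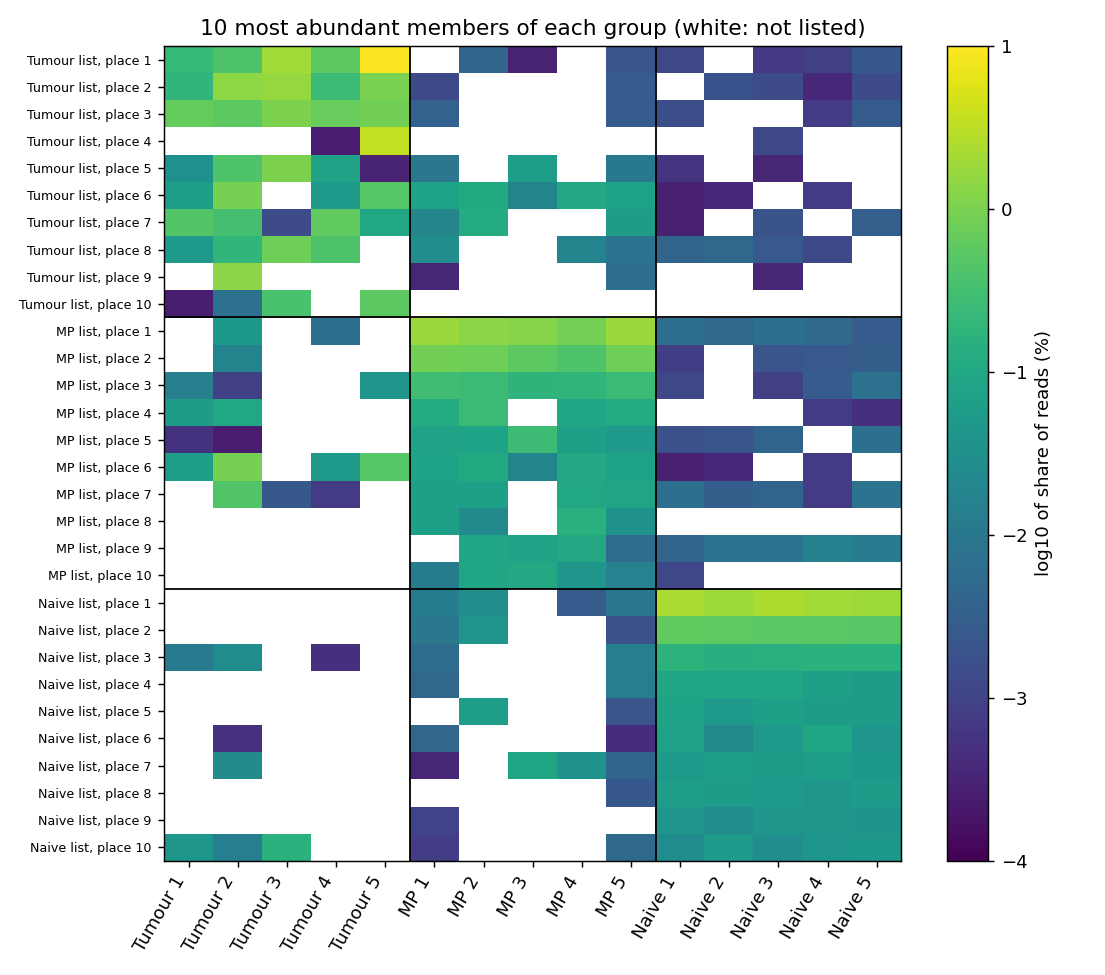
Log10 of the share of reads (%) in each library for the 10 most abundant loops of each group, 1 row per loop in order of mean share; white means not listed. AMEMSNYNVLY stands in both the Tumour and the MP list, and the first Naive loop, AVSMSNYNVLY, is white in all Tumour libraries.

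Reads per loop were compared with edgeR's quasi-likelihood test over the whole table of CDR3s, with a Benjamini-Hochberg adjusted p under 0.05 and CDR3s of at least 10 reads in at least 3 libraries. A loop listed in no library of a group passed this filter through the other group alone. It could be called only as higher in that other group, so its p is no separate evidence of the direction. A loop with fewer than 10 reads in every library of a group also passed through the other group alone. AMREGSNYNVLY, with 4 reads in all tumours together, is an example. The p of such a loop is not independent of that selection either. In Tumour against MP, 71 loops were tested and 880 listed in these libraries were not. Of the 71, 18 were higher in tumours (25.4%) and 25 were lower (35.2%), where 7.68% of the 1666 CDR3s tested were called higher and 66.0% lower. Their median log2 fold was 0.48, against -7.57 over all CDR3s tested. Without Tumour 4 the count of higher loops was 11, and without MP 1 or without MP 5 the count of lower loops was 13. Of the 18 higher loops, 14 begin with AM (77.8%) and none with AL, where 30 of the 71 tested begin with AM (42.3%) and 16 with AL (22.5%). Of the 25 lower loops, 12 begin with AL and 1 with AM. These shares were not tested.

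In Tumour against Naive, 164 loops were tested and 1810 were not. Of the 164, 26 were higher in tumours (15.9%) and 119 lower (72.6%), where 3.38% of the 4671 CDR3s tested were called higher and 86.7% lower. The median log2 fold was -7.18 for the loops and -7.42 for all. Without Tumour 2 the count of higher loops was 17. Among the 26 higher loops, 20 begin with AM (76.9%) and 17 are of 11 residues (65.4%), where 28 (17.1%) and 52 (31.7%) of the 164 tested do so. A serine stands before the end in 19 of the 26 (73.1%) and in 136 of the 164 (82.9%). Since the filter on reads keeps a loop that is abundant in 1 group alone, these counts describe the loops that passed it and not all 2324.

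In MP against Naive, 176 loops were tested and 1953 were not. Of the 176, 21 were higher in MP (11.9%) and 82 lower (46.6%), close to the 12.6% and 48.1% of all 5954 CDR3s tested. The median log2 fold was -2.75 for the loops and -3.35 for all. Of the 82 lower loops, 68 have a serine before the end (82.9%) and 39 have methionine and serine (47.6%), close to the 142 (80.7%) and 76 (43.2%) of the 176 tested. Loops of 12 or more residues were 38 of the 82 lower loops (46.3%) and 57 of the 176 tested (32.4%). Of the 21 higher loops, 10 have a serine (47.6%) and 4 an alanine (19.0%) before the end, and 12 are of 10 or fewer residues (57.1%). Among the 176 tested, 13 have that alanine (7.39%) and 68 are of 10 or fewer residues (38.6%).

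Among the Tumour loops, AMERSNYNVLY held 0.225, 0.405, 2.04, 0.550 and 9.47% of reads in Tumour libraries 1 to 5, against 0 to 0.00425% in MP libraries and 0 to 0.00236% in Naive libraries. It was in all tumours and most abundant in Tumour 5, and the groups did not overlap. The log2 fold was 10.9 against MP and 11.3 against Naive (edgeR, adjusted p = 0.0107 and 0.000344). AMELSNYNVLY held 0.198, 1.42, 1.63, 0.255 and 0.972% in the tumours, and at most 0.00278% in MP and 0.00183% in Naive libraries. It too was higher than in MP and in Naive libraries, with log2 folds of 10.1 and 9.78 (edgeR, adjusted p = 0.0107 and 0.000163).

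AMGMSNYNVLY was the most even of these across the tumours, at 0.646, 0.562, 1.03, 0.699 and 0.881% of reads, against 0.00374% at most in MP and 0.00283% at most in Naive libraries. Its log2 fold was 9.17 against MP and 9.51 against Naive (edgeR, adjusted p = 0.0122 and 0.000331). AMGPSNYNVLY was listed in 4 tumours, at 0.000268, 0.00719, 0.360 and 0.546% in Tumour 1, 2, 3 and 5, and in no MP or Naive library. It therefore passed the filter on reads through the tumours alone. Its share was higher by at least 417-fold against MP (edgeR, adjusted p = 0.0161) and by at least 364-fold against Naive (edgeR, adjusted p = 0.0158). Without Tumour 2, 3 or 5 it no longer passed the filter on reads. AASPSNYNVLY, a loop that begins with AA and was in all 5 tumours at 0.000319 to 0.295%, was in no Naive library and was at least 271-fold higher than there (edgeR, adjusted p = 0.00184). In that comparison it too passed the filter on reads through the tumours alone.

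Other abundant Tumour loops rested on fewer libraries or were also found in MP. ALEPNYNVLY held 3.53% of reads in Tumour 5 and 0.000245% in Tumour 4, and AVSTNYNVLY held 1.36% in Tumour 2 and was at 0 in the other tumours, so neither passed the filter for the test. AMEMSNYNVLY held 0.0636, 0.944, 0, 0.0514 and 0.486% in Tumour libraries 1 to 5, against 0.0788, 0.110, 0.0178, 0.103 and 0.0792% in MP and at most 0.000724% in Naive libraries. It was higher than in Naive both in tumours (log2 fold 10.1, edgeR, adjusted p = 0.00316) and in MP (log2 fold 8.06, edgeR, adjusted p = 0.000706). Between Tumour and MP its difference did not pass (log2 fold 1.99, edgeR, adjusted p = 0.316). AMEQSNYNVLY, ATMSNYNVLY and AIMSNYNVLY averaged 0.312, 0.296 and 0.285% in tumours and 0.0158, 0.0386 and 0.0108% in MP. Their Tumour libraries overlapped with MP, and none passed that test (edgeR, adjusted p = 0.115, 0.225 and 0.0961), except AIMSNYNVLY without Tumour 5, where it was at 0 (edgeR, adjusted p = 0.0451). All 3 were higher in tumours than in Naive libraries (edgeR, adjusted p = 0.00199, 0.00409 and 0.0107).

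Several loops of lower share were also higher in tumours than in MP. AMMSNYNVLY, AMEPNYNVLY, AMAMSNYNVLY and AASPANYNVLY were in no MP library, so in this comparison they passed the filter on reads through the tumours alone. They were at least 313-fold, 267-fold, 191-fold and 127-fold higher in tumours (edgeR, adjusted p = 0.0152, 0.0170, 0.0150 and 0.0183). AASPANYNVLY was listed in Tumour 1, 2 and 5, and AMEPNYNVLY in Tumour 1, 2 and 4. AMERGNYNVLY held 0.0649% in Tumour 3, 0.227% in Tumour 4 and its highest share in Tumour 5, and was listed in 1 MP and 1 Naive library with at most 3 reads. It was called higher in tumours than in Naive libraries (edgeR, adjusted p = 0.00631). Each of these 3 rested on 3 tumours and was not tested when any of those was left out.

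Among the MP loops, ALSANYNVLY was at 0.0465% of reads in Tumour 2, 0.00673% in Tumour 4 and 0 in the other tumours. It held 1.81, 1.32, 1.25, 0.910 and 1.81% in MP libraries 1 to 5, against 0.00640, 0.00493, 0.00714, 0.00525 and 0.00283% in Naive libraries 1 to 5. It was in every MP and Naive library, and its mean share was 267 times as high in MP as in Naive (log2 fold 8.06, edgeR, adjusted p = 5.59e-05). It was lower in Tumour than in MP (log2 fold -7.06, edgeR, adjusted p = 0.0206). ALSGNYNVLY, which differs from it by a single residue, was listed in Tumour 2 only among the tumours, at 0.0181%. It held 0.873, 0.805, 0.546, 0.425 and 0.804% in MP libraries 1 to 5, against at most 0.00299% in Naive libraries. It was higher in MP than in Naive (log2 fold 8.66, edgeR, adjusted p = 0.000662). It was lower in Tumour than in MP (log2 fold -7.57, edgeR, adjusted p = 0.0201).

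ALPNYNVLY, the leading proline form of MP with 9 residues, averaged 0.0113% in tumours. It held 0.294, 0.257, 0.182, 0.187 and 0.252% in MP libraries 1 to 5, against 0.00723% at most in Naive libraries. It was higher in MP than in Naive (log2 fold 6.58, edgeR, adjusted p = 0.00125). The difference of Tumour from MP did not pass (log2 fold -4.38, edgeR, adjusted p = 0.0685). Without Tumour 5, where it stood at 0.0403%, it did (log2 fold -5.86, edgeR, adjusted p = 0.0322).

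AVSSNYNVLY held 0.263% in MP 3 and 0.0497 to 0.0813% in the other MP libraries, against 0 to 0.00707% in Naive libraries. It was higher in MP than in Naive (log2 fold 5.15, edgeR, adjusted p = 0.00446) and lower in Tumour than in MP (log2 fold -9.26, edgeR, adjusted p = 0.0107). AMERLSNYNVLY, ATAWSNYNVLY and AFLLMSNYNVLY averaged 0.115, 0.0562 and 0.0530% in MP and were higher there than in Naive libraries (edgeR, adjusted p = 0.00545, 0.00956 and 0.00366). ATAWSNYNVLY and AFLLMSNYNVLY were in no tumour, and at least 144-fold and 136-fold lower there than in MP (edgeR, adjusted p = 0.0152 and 0.0105). The short loops APLNYNVLY and APINYNVLY, of 9 residues, were in all 5 MP libraries and no tumour. APLNYNVLY was at least 133-fold lower in tumours than in MP (edgeR, adjusted p = 0.0103). APINYNVLY was in no Naive library and was at least 38.7-fold higher in MP than there (edgeR, adjusted p = 0.000725). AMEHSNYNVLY and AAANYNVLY, each in 4 MP libraries and in no Naive library, had MP shares above the Naive floor by at least 94.4-fold and 76.2-fold (edgeR, adjusted p = 0.00977 and 0.0113). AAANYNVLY was also in no tumour and at least 98.1-fold lower there than in MP (edgeR, adjusted p = 0.0152). Where a loop of this paragraph was in no tumour or no Naive library, it passed the filter in that comparison through MP libraries alone.

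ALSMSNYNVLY, which averaged 0.0544% in MP and 0.00966% in Naive libraries, did not pass the test between them (edgeR, adjusted p = 0.144), except without MP 1, where it was not listed (edgeR, adjusted p = 0.0143). AVMSNYNVLY was called higher in MP than in Naive (log2 fold 3.84, edgeR, adjusted p = 0.0339). The call was lost without MP 4 or without any 1 of the Naive libraries, with adjusted p of 0.0503 to 0.0780 (edgeR). AVMSNYNVLY was at 0.440% in Tumour 2 and at most 0.00239% in the other tumours. Its log2 fold was 0.46 in Tumour against MP, and -6.35 without Tumour 2 (edgeR, adjusted p = 0.873 and 0.0374).

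Among the Naive loops, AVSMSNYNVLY was listed in no Tumour library and held 0.0130, 0.0301, 0, 0.00279 and 0.00936% of reads in MP libraries 1 to 5, against 2.32, 1.83, 2.37, 1.98 and 1.86% in Naive libraries 1 to 5. It was the most abundant loop of the end in each Naive library. It was at least 5311-fold lower in tumours than in Naive libraries (edgeR, adjusted p = 2.11e-05), and lower in MP than in Naive (log2 fold -7.55, edgeR, adjusted p = 0.00125). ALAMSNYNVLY was listed in no tumour and held 0 to 0.0396% in MP libraries, against 0.503 to 0.615% in Naive libraries. It was at least 1409-fold lower in tumours than in Naive (edgeR, adjusted p = 1.34e-05), and its log2 fold in MP against Naive was -5.75 (edgeR, adjusted p = 0.0167). In Tumour against Naive, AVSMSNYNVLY and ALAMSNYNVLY passed the filter on reads through Naive libraries alone.

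ALMSNYNVLY held 0 to 0.0265% in Tumour libraries and 0 to 0.0137% in MP libraries, against 0.137 to 0.172% in Naive libraries, without overlap of Naive with either. It was lower in MP (log2 fold -5.27, edgeR, adjusted p = 0.0283) and in Tumour than in Naive (log2 fold -4.30, edgeR, adjusted p = 0.0366). Both calls were near the threshold. The MP call was lost without Naive 1 (edgeR, adjusted p = 0.0506), and the Tumour call without Tumour 4 or without any 1 Naive library (edgeR, adjusted p of 0.0530 to 0.0623).

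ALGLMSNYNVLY, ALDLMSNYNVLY, AIGLMSNYNVLY and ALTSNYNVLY were in no tumour and were at least 204-fold, 158-fold, 138-fold and 99.5-fold lower there than in Naive libraries (edgeR, adjusted p = 1.27e-05 each). In this comparison they passed the filter on reads through Naive libraries alone, so their p is no separate evidence of the direction. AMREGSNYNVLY was listed in Tumour 2 alone among the tumours, at 0.000514%, against 0.0223 to 0.0872% in Naive libraries, and was lower in tumours (log2 fold -8.82, edgeR, adjusted p = 0.000353). In MP against Naive, AIGLMSNYNVLY, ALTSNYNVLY and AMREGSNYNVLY were lower (log2 folds -6.79, -7.37 and -5.77, edgeR, adjusted p = 0.00905, 0.00294 and 0.0144). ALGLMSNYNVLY, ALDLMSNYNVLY and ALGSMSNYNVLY did not pass that test (log2 folds -4.38, -2.30 and -1.06, edgeR, adjusted p = 0.0511, 0.328 and 0.561). With 1 library left out, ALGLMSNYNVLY passed without MP 3 or MP 5 (edgeR, adjusted p = 0.0487 and 0.0202) and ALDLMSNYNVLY without MP 2 (edgeR, adjusted p = 0.00728). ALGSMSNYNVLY averaged 0.00493% in tumours, all of it from Tumour 2, and 0.0539% in Naive libraries (log2 fold -3.44, edgeR, adjusted p = 0.135). Without Tumour 2 it was at 0 in the tumours, passed the filter through Naive libraries alone and passed the test (edgeR, adjusted p = 1.46e-06).

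By the fitted log2 fold of MP against Naive, the 5 lowest called loops were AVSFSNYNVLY, AIGRMSNYNVLY, AIASMSNYNVLY, AYMSNYNVLY and AIGVMSNYNVLY, whose true folds are known only as bounds. They were in no MP library and in all 5 Naive libraries, so they passed the filter on reads through Naive libraries alone. They were at least 73.6-fold, 74.8-fold, 49.4-fold, 43.1-fold and 36.9-fold lower in MP (edgeR, adjusted p = 0.000662 each). AYMSNYNVLY was also at 0.813% in Tumour 5, at 0.000670% in Tumour 1 and at 0 in the other tumours. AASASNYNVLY held 0.0450, 0.0144 and 0.156% in Tumour 1, 2 and 3 and 0 in the others, against 0.0273 to 0.0508% in Naive libraries. Its Tumour value did not differ from Naive past the threshold (log2 fold 0.16, edgeR, adjusted p = 0.929), nor without Tumour 3 (log2 fold -1.38, edgeR, adjusted p = 0.437). In MP it was lower than in Naive (log2 fold -4.94, edgeR, adjusted p = 0.0265), a call lost without Naive 2 (edgeR, adjusted p = 0.0506).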

How the data were processed

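TCR alpha CDR3s were measured in 15 libraries. For each CDR3 peptide the authors deposited a count of reads, not normalized. Per the labels' protocols, Trizol RNA of sorted cells went to iRepertoire, whose arm-PCR amplifies the chains with many primers at once, on a Roche platform by the company's description. For the aligner, any error filter and any molecular identifier, the tool or setting is not given in the sources used here. Groups were taken from the sample titles.

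Shares were computed with pandas 2.3.3, numpy 2.4.6 and scipy 1.17.1 under python 3.11.15, with figures from matplotlib 3.10.9. Exact permutation tests ran over all 252 ways to divide 10 libraries into groups of 5, with a two-sided p of 2 times the smaller tail, at least 0.00794. Calls per loop used edgeR 4.0.16 with limma 3.58.1 in R 4.3.3, robust dispersions and total reads as library size, with each pair of groups fitted alone. Alternatives were TMM, DESeq2 1.42.0, a filter of at least 50 reads, no filter (at least 1 read in at least 2 libraries), the library number as a block, each library left out, and for shares a minimum of 10 reads, folding of neighbours, a common depth of 547665 reads, 5-residue ends and ends of at least 0.5%. Both tests were also run on simulated data, for edgeR with the same dispersion for every CDR3. That run does not show how edgeR behaves at the spread of the Tumour libraries.

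The labels give no pairing of libraries, which were treated as unpaired. They name separate mice, and the p-values measure the spread between these libraries.

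Named were the 10 loops with the highest mean share in each group, the most abundant loop of each library, and in each comparison the 5 called loops with the largest log2 fold each way. The loops and lists were chosen with earlier results of these data known. The families and starts were chosen after their values were seen.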

Additional observations from a re-analysis of the deposited data

Results flagged for a closer look

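Among 129 groups of 5 libraries checked (each named loop in each group whose values were not all equal, and shares, numbers, diversity and lengths of the loops), 32 had 1 library farther from the others than Dixon's 95% value of 0.710 allows. Chance flags about 1 in 20 groups of normally spread values. Many of these shares were of loops unlisted in most libraries, so that rate is no yardstick for them. In 14 of the 32 the loop was listed in that library alone, which is flagged at any share. All 32 were highest libraries, and the cause of each was not tested.

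In tumours, Tumour 5 stood apart for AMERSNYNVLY at 9.47% of reads (next tumour 2.04%), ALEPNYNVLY at 3.53% (next 0.000245%), AYMSNYNVLY at 0.813% (next 0.000670%), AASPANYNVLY at 0.225% (next 0.0307%) and all loops ending PNYNVLY at 4.22% (next 0.538%). Tumour 2 stood apart for AVMSNYNVLY at 0.440% (next 0.00239%) and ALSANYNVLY at 0.0465% (next 0.00673%). It alone listed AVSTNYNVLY at 1.36%, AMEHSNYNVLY at 0.0279%, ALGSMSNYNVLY at 0.0247%, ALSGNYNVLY at 0.0181% and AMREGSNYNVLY at 0.000514%. Tumour 3 stood apart for AMMSNYNVLY at 0.480% (next 0.0786%) and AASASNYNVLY at 0.156% (next 0.0450%).

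In MP libraries, MP 3 stood apart for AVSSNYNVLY at 0.263% (next MP library 0.0813%) and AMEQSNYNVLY at 0.0595% (next 0.0104%), and alone listed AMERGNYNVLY at 0.000448%. MP 2 did so for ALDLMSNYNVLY at 0.0604% (next 0.00205%) and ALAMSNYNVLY at 0.0396% (next 0.00952%). MP 5 did so for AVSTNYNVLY at 0.00599% and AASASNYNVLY at 0.00541%, and alone listed AIGLMSNYNVLY at 0.00234%. MP 1 did so for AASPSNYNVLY at 0.00556% and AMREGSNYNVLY at 0.00442%, and alone listed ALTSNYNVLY at 0.00102%.

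In Naive libraries all of these shares were low. Naive 2 stood apart for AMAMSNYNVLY at 0.00365% (next 0.000522%). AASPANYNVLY was listed in Naive 4 alone at 0.00145%, AFLLMSNYNVLY in Naive 1 alone at 0.00114%, and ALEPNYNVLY at 0.00122%, AMMSNYNVLY at 0.000522%, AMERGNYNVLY at 0.000348% and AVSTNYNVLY at 0.000348% in Naive 3 alone.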

How the results depend on the processing

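The share of reads kept its direction under each alternative except for MP against Naive, where leaving out each library's most abundant loop gave 0.0567 points (exact permutation test, adjusted p = 0.846). The same alternative gave 4.77 points for Tumour against Naive and 4.71 for Tumour against MP, both past the threshold (exact permutation test, adjusted p = 0.0281 each). With 1 library left out the share of reads differed by 2.72 to 6.76 points for Tumour against Naive and 3.30 to 7.34 for Tumour against MP. The share of distinct CDR3s for MP against Naive was -0.0998 points with at least 10 reads and 0.19 with neighbours folded. For Tumour against MP at least 10 reads gave 4.61 points (exact permutation test, adjusted p = 0.0595). With 1 library left out this share differed by 4.42 to 5.51 points for Tumour against Naive and 4.14 to 5.23 for Tumour against MP. Deviations of same-numbered MP and Naive libraries from their group means correlated by 0.0125 to 0.0470. Libraries of different number were not compared in this way, so these values do not show whether the mice were the same. In the comparisons with Tumour, whose mice were of another age, the correlations were -0.0363 to 0.0214. For shares, the replicate block was a permutation test that flips the signs of the 5 same-numbered differences. Its smallest p is 0.0625, so it could pass no threshold. It gave 0.28, 5.09 and 4.81 points for the share of distinct CDR3s in MP against Naive, Tumour against Naive and Tumour against MP. The count of 7-residue ends of the loops called in Tumour against Naive was 1, and 0 to 2 with 1 library left out.

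Counts of called loops moved most with the filter. Without it, 66 were higher and 386 lower in MP against Naive, 61 and 541 in Tumour against Naive, and 62 and 116 in Tumour against MP. With at least 50 reads, 30, 37 and 13 were lower in the same order. With the replicate block, 7 were higher and 8 lower in Tumour against MP. With 1 library left out, 17 to 24 were higher in Tumour against Naive, and 11 to 16 higher and 13 to 30 lower in Tumour against MP. The log2 fold of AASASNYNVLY in Tumour against Naive, 0.16, was -1.72 with TMM, -1.35 with DESeq2, -2.50 with the replicate block and -1.38 (without Tumour 3) to 0.48 with 1 library left out. That of AVMSNYNVLY in Tumour against MP was -6.56 with the replicate block and -6.35 (without Tumour 2) to 0.78 with 1 library left out. With the replicate block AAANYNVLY and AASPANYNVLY lost their calls in Tumour against MP (edgeR, adjusted p = 0.0532 and 0.0560), AVMSNYNVLY lost its call in MP against Naive, and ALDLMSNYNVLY and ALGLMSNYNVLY in MP against Naive and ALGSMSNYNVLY in Tumour against Naive gained one. The causes of these changes were not tested. A loop under 2 reads in a library is not listed, which limits what can be said of rare loops.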
